A study of Solanum lycopersicum with 96 samples.

Results

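Seed of the tomato (Solanum lycopersicum) cultivar Moneyberg was compared between mother plants given BABA in time window 3 (BABA TW3) and control mother plants, by whole-genome bisulfite sequencing. The comparison rests on 2 pooled lists of genomic regions, 1 per group, taken whole. The BABA TW3 list held 31115 regions and the control list 32856, together 63971 of the 237372 regions in the 8 lists of the series. A BABA TW3 region with no base in the control list was called gained, and a control region with no base in the BABA TW3 list was called lost. All other regions were sorted by whether their limits were the same in both lists, had moved, or had been split or merged.

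Both groups had the Moneyberg genotype and seed as tissue, and differed in the treatment of the mother plant alone, as far as the labels say. Each group had 12 libraries, made of 6 replicates with a technical repeat of each, out of 96 libraries in 8 groups. Every extraction used 10 seeds together, drawn from 6 mother plants per treatment, so a value stands for a mixture of embryos, endosperms and seed coats. The labels give no dose, no plant age and no date for the time window. The series description counts 90 libraries and leaves BABA TW3 out of its selection, so this group is known from the sample labels and its list.

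BABA (beta-aminobutyric acid) is a non-protein amino acid that primes plant defence, so that a later attack is met faster or more strongly. In Arabidopsis thaliana it is perceived through an aspartyl-tRNA synthetase. Plants methylate cytosines in CG, CHG and CHH contexts, and methylation marks silenced transposable elements, which fill the pericentromeric heterochromatin of tomato chromosomes. Such marks can pass through the germ line, which is why the seed of treated mother plants is examined.

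The regions carry names that begin with HYPO, and a score. The lists state no methylation level, no cytosine context and no build of the genome, and most listed sequence lay in chromosome interiors. Gained and lost therefore speak of listing, not of more or less methylation. The score is the authors' own value, a whole number that went with the length of the region (Pearson's r of 0.904 across BABA TW3 regions and 0.900 across control regions, which share a list and its depth). With 1 pooled list per group there was no replicate error and no test between the groups. The 95% Wilson intervals beside shares reflect the number of regions counted, and nothing of how plants or seed lots vary. No genes are named, because the gene table at hand belongs to another assembly: the last listed base of chromosome 2 lay 15.8 Mb before the end of its last gene, and that of chromosome 1 lay 3.66 Mb beyond.

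The lists covered almost the same amount of sequence. BABA TW3 listed 450.9 Mb and control 450.5 Mb, which is 55.9% and 55.8% of the length of the 12 chromosomes. Of these, 435.8 Mb were in both. Bases in only the BABA TW3 list came to 15.1 Mb and bases in only the control list to 14.7 Mb. The Jaccard index, the bases in both lists over the bases in either, was 0.936. The control list thus held 1741 more regions for 0.342 Mb less sequence. Its regions were shorter, with a median of 9.63 kb against 10.2 kb, and their median score was 154 against 162.

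More than any other class, regions had the same limits in both lists. Identical intervals numbered 17046, or 54.8% of the BABA TW3 list. Among them 15988 (93.8%) also carried the same score. The score was higher in BABA TW3 for 624 and lower for 434, and 769 of these differences were of 1. A further 6919 BABA TW3 regions (22.2%) paired with exactly 1 control region but had moved limits. Splitting and merging were unequal. Of the control regions 1280 (3.9%) were split, into 2659 BABA TW3 regions, while 4527 (13.8%) were merged, into 2126. Another 1529 BABA TW3 and 1608 control regions formed 701 groups in which several regions of each list overlapped.

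The difference of 1741 in region number can be written as a sum over these events. Merging removed 2401 regions and splitting added 1379. Gained and lost regions left BABA TW3 with 640 fewer, and the groups of several regions with 79 fewer. Joining of neighbouring regions therefore counted for more of the difference in number than absent regions did.

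Gained regions numbered 836, which is 2.69% of the BABA TW3 list (2.51% to 2.87%). Lost regions numbered 1476, or 4.49% of the control list (4.27% to 4.72%). Both kinds were small. Gained regions had a median length of 6.15 kb and a median score of 85, and lost regions 5.19 kb and 71. By bases they made up 1.19% of the BABA TW3 list and 1.77% of the control list. Their score per kb was also low. Among regions with a score under 100, the 629 gained ones had a median of 14.0 per kb, and the 6760 BABA TW3 regions touching the control list had 15.1. For the control list these medians were 14.7 for 1308 lost regions and 15.1 for 7398 others. The quartiles of all gained regions, 11.8 to 18.5 per kb, overlapped those of the identical intervals, 13.5 to 20.9.

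The surplus of lost over gained regions sat at the lower score limits of the lists. The lowest score was 69 in BABA TW3 and 65 in control. Of the 557 control regions from 65 to 68, where BABA TW3 has none, 447 were lost and 110 touched a larger BABA TW3 region. The limit was not a clean step. At a score of 69 the BABA TW3 list had 79 regions and the control list 312, and at 70 they had 208 and 338. By 75 the numbers were 317 and 334.

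Control regions just above the BABA TW3 limit were often lost. The share was 56.7% at a score of 69, 30.8% at 70, 13.5% at 71 and 9.52% at 72. Gained regions showed no such step, with 7.59% at 69, 8.17% at 70, 9.09% at 71 and 11.2% at 72. At 72 and above the order of the counts over all chromosomes turned. With the other list left whole, regions scoring 69 or more were gained in 836 and lost in 1029 cases, those scoring 72 or more in 790 and 707, and those scoring 100 or more in 207 and 168. The turn came from the chromosomes other than 9, with 412 gained and 316 lost at 72 or more and 355 and 257 at 75 or more. Chromosome 9 had 378 and 391, and then 344 and 345, so its counts were nearly equal without turning.

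**Figure D1:**
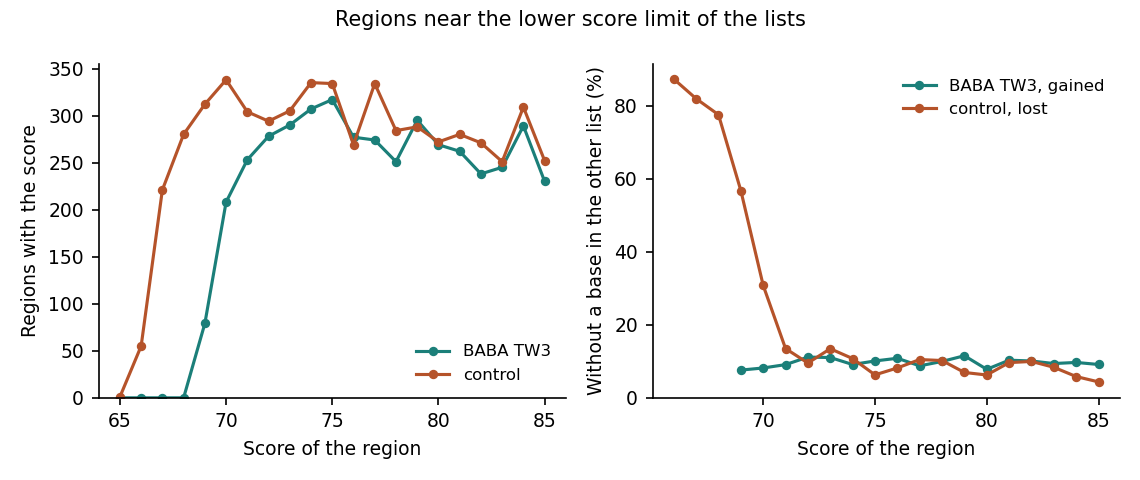
Left, number of regions at each score in the BABA TW3 and control lists; right, percent of these regions with no base in the other list, for scores held by at least 50 regions. The control list reaches down to 65 and BABA TW3 to 69, and the share of lost regions goes from 56.7% at 69 to 9.52% at 72.

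When both lists were cut to a score of 69 or more before the comparison, 894 regions were gained (2.87%) and 1029 lost (3.19%). Since BABA TW3 already starts at 69, the extra 58 gained regions were those whose only control partner scored below it. At 75 or more in both lists, a limit chosen after seeing the data, 981 were gained (3.3%) and 747 lost (2.46%), and without chromosome 9 the counts were 553 (1.99%) and 358 (1.26%). More were then gained than lost on each of the 12 chromosomes, whereas with all regions more were lost on each of the 12. The cut at 75 also calls regions gained or lost when their only partner scored below 75. With the other list left whole, 699 regions scoring 75 or more were gained and 602 lost. On chromosome 9 those counts were 344 and 345, and they became 428 and 389 only after the cut.

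Chromosome 9 stood apart from all other chromosomes. It held 6.74% of the BABA TW3 regions but 45.9% of the gained ones and 32.2% of the lost ones. On it 384 of 2096 BABA TW3 regions were gained (18.3%, interval 16.7% to 20.03%) and 476 of 2252 control regions lost (21.1%, interval 19.5% to 22.9%). On the other 11 chromosomes the gained share ran from 1.09% on chromosome 7 to 2.15% on chromosome 3, and the lost share from 2.69% on chromosome 7 to 3.65% on chromosome 11. The background without chromosome 9 was 452 gained (1.56%) and 1000 lost (3.27%). With the limit of 69 in both lists it was 498 gained (1.72%) and 582 lost (1.93%), and chromosome 9 then had 396 gained and 447 lost.

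Off chromosome 9, the limit of 69 brought both shares together. The gained share was then 1.24% to 2.35% and the lost share 1.60% to 2.28% over the 11 chromosomes. Chromosome 3 had more gained than lost regions, 60 against 45, and the other 10 had more lost. The intervals of the gained and the lost share overlapped on each of them.

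**Figure D2:**
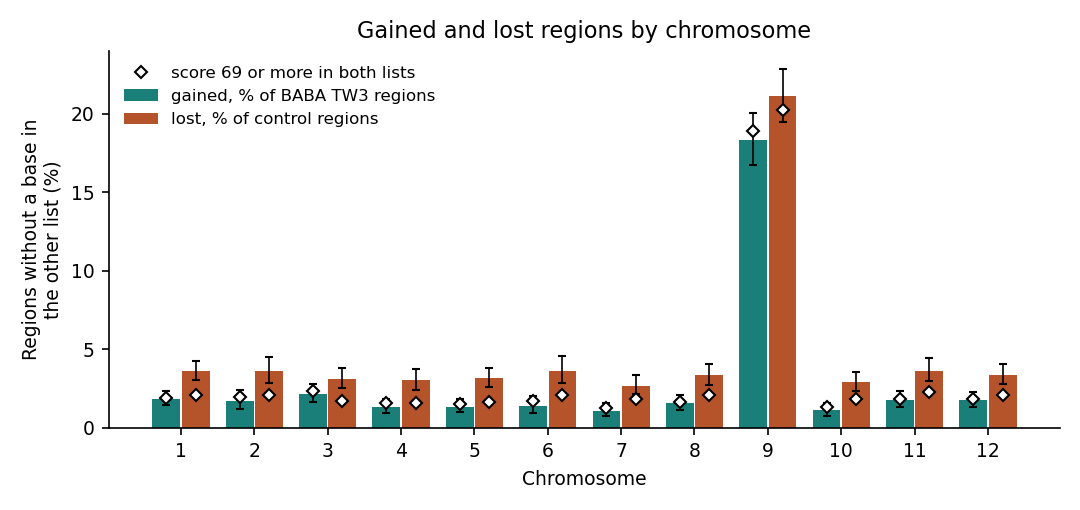
Percent of BABA TW3 regions gained and of control regions lost on each chromosome, with 95% Wilson intervals; diamonds give the same shares with a score of 69 or more in both lists. Chromosome 9 reaches 18.3% and 21.1%, and no other chromosome is above 3.65%.

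The overlap of listed bases showed the same order. The Jaccard index was 0.569 on chromosome 9 and 0.940 to 0.961 on the others, lowest on chromosome 2 and highest on chromosome 7. Of the BABA TW3 regions on chromosome 9, 21.7% were identical intervals, against 50.7% to 62.6% elsewhere, and 42.2% had moved limits, against 18.97% to 24.4%. Splits were not more frequent there, at 3.15% of control regions, and neither were merges, at 11.4%. Off chromosome 9 these ranged from 2.51% to 5.24% and from 11.4% to 16.6%. By share of regions, absent regions and moved limits set chromosome 9 apart, and splits and merges did not. These shares are not matched for size. Split control regions were long, with a median of 27.5 kb. On chromosome 9, 194 of 2252 control regions scored 200 or more, against 12465 of 30604 elsewhere.

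The difference did not extend over the whole of chromosome 9. In bins of 1 Mb the Jaccard index was 0.952 from 5 to 6 Mb and 0.579 from 6 to 7 Mb. At the other end it was 0.403 from 60 to 61 Mb, 0.817 from 61 to 62 Mb and 0.953 from 62 to 63 Mb. Between 6 and 61 Mb, limits that were read off these bins, 51 bins had at least 100 kb listed in either list. Their index was 0.291 to 0.682, with a median of 0.461. The other 16 such bins of chromosome 9 ran from 0.755 to 0.956, and the 683 bins of the other chromosomes had a median of 0.955. Only 2 of those 683 bins were at or below 0.682. A bin of chromosome 3 and a bin of chromosome 4 lay just above it, at 0.684 and 0.685.

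On this stretch of 55 Mb, 361 of 1579 BABA TW3 regions were gained (22.9%) and 434 of 1706 control regions lost (25.4%). Identical intervals made up 8.87% of its BABA TW3 regions. From 62 to 72 Mb, next to it, 7 of 275 were gained (2.55%), 18 of 291 were lost (6.19%) and 66.5% were identical. The listed share of the sequence hardly differed between these stretches. It was 22.2% for BABA TW3 and 22.6% for control from 6 to 61 Mb, and 24.5% and 25.03% from 62 to 72 Mb. The stretch held 5.07% of all BABA TW3 regions, 43.2% of the gained regions and 29.4% of the lost regions.

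**Figure D3:**
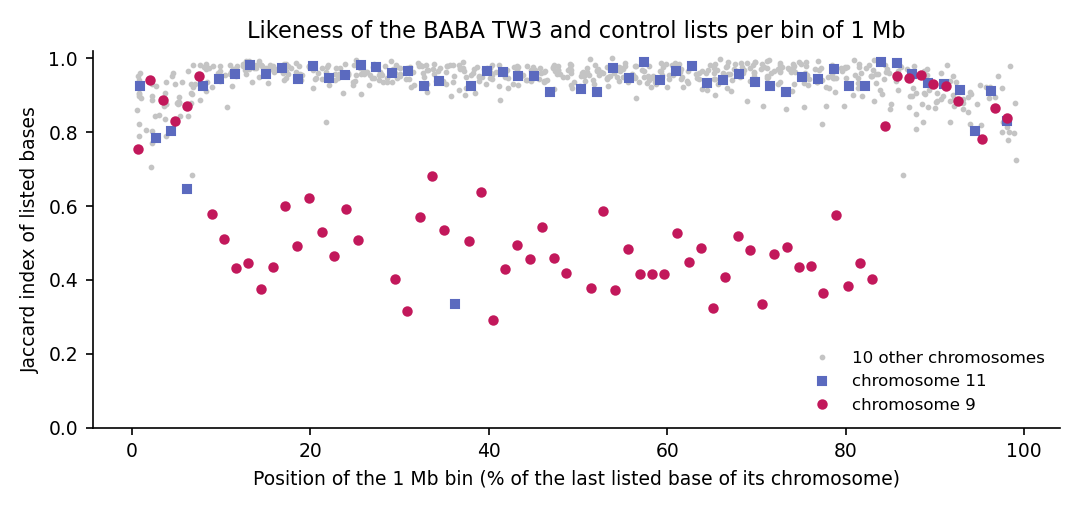
Jaccard index of the BABA TW3 and control lists in each bin of 1 Mb with at least 100 kb listed, by position along its chromosome. Bins of chromosome 9 from 6 to 61 Mb lie between 0.291 and 0.682, and its other bins between 0.755 and 0.956. The median of those other bins is 0.885, against 0.955 for the other chromosomes. A single bin of chromosome 11 lies at 0.336.

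Lists that include neither BABA TW3 nor the Moneyberg control were as unlike on the same stretch. The 3 pairs among Moneyberg BABA TW2, Ina TW2 and MeJA TW3 had indices of 0.479, 0.495 and 0.470 from 6 to 61 Mb, where BABA TW3 against control had 0.477. The 3 pairs of Bolstar lists, from another cultivar, had 0.487, 0.469 and 0.511. From 62 to 72 Mb the Moneyberg pairs had 0.926, 0.900 and 0.904, and BABA TW3 against control 0.918. The Bolstar pairs were lower there, at 0.836, 0.789 and 0.834. From 6 to 61 Mb, the index of BABA TW3 against control was neither below nor above those of all 6 pairs.

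Both of the bins off chromosome 9 within the range of the stretch were on chromosome 11. From 3 to 4 Mb the index was 0.647. From 20 to 21 Mb on chromosome 11 the index was 0.336, with 0.938 in the bin before it and 0.925 in the bin after it. The bin is thinly listed, at 7.07% in BABA TW3 and 9.59% in control, and none of its 16 BABA TW3 regions had a counterpart with the same limits. It held 9 of the lost regions and 2 of the gained ones. The pairs of other Moneyberg lists had 0.422, 0.604 and 0.447 there.

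The gained and lost shares were lower in the higher score classes, but on chromosome 9 they were still sizeable at a score of 100 or more. There 112 of 1123 BABA TW3 regions were gained (9.97%) and 107 of 1088 control regions lost (9.83%), against 0.420% and 0.265% on the other chromosomes. Over all chromosomes the gained share was 9.97% at scores of 69 to 79, 7.61% at 80 to 99, 2.68% from 100 to below 150 and 0.395% from 150 to below 200. At 200 or more it was 0.0315%, or 4 of 12702 regions. All 4 were on chromosome 9, where they made up 2.05% of 195 regions of that class.

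Chromosome 9 had the higher gained share in each score class. At scores of 80 to 99, 169 of 611 BABA TW3 regions on chromosome 9 were gained (27.7%, interval 24.3% to 31.3%), against 178 of 3949 elsewhere (4.51%, interval 3.90% to 5.20%). From 100 to below 150 the shares were 14.0% and 1.42%. Lost regions had the higher share on chromosome 9 in the classes from 69 to below 200, with 26.9% against 3.33% at 80 to 99 and 14.7% against 0.873% from 100 to below 150. Below 69, in the range the BABA TW3 list lacks, 29 of 43 were lost on chromosome 9 (67.4%, interval 52.5% to 79.5%). Elsewhere 418 of 514 were lost (81.3%, interval 77.7% to 84.5%), so the share was the lower on chromosome 9, with overlapping intervals. At 200 or more, 0 of 194 control regions were lost on chromosome 9, where counting error allows up to 1.94%, and 1 of 12465 elsewhere.

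**Figure D4:**
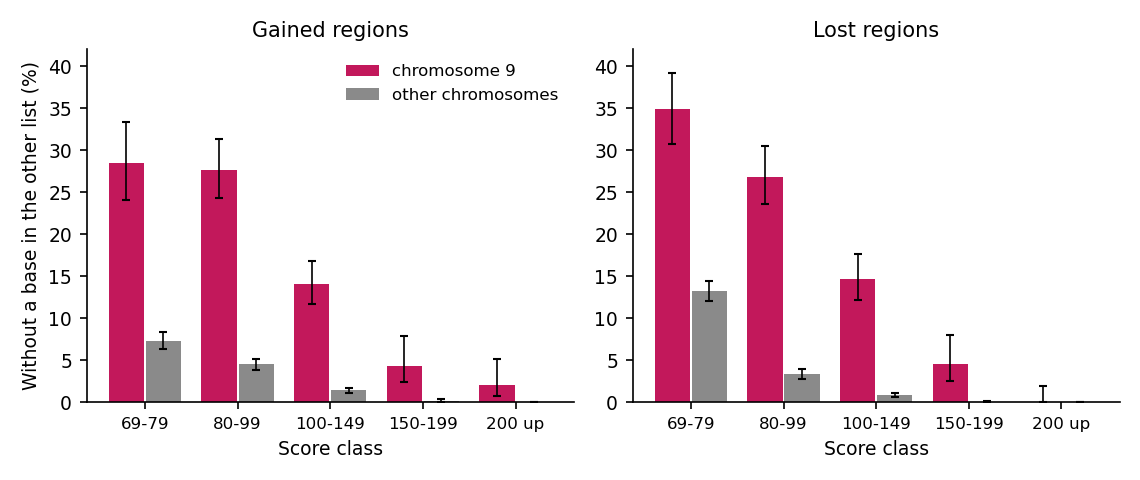
Percent of BABA TW3 regions gained (left) and control regions lost (right) by score class, on chromosome 9 and on the other chromosomes, with 95% Wilson intervals. In the class of 80 to 99 the gained share is 27.7% on chromosome 9 and 4.51% elsewhere.

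By length, 6.33% of BABA TW3 regions under 5 kb and 4.53% of those of 5 to 10 kb were gained, but 0.735% of those of 10 to 20 kb. A single region of 20 kb or more was gained, of 6576. In the control list no region of 20 kb or more was lost, of 6279, and 14.0% of those under 5 kb were.

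Away from chromosome 9, gained and lost regions were relatively more frequent near the chromosome ends, most of which in tomato are gene-rich. The first 5 Mb of chromosome 2 differed, with 58.5% to 89.7% of each 1 Mb bin listed in BABA TW3, as in chromosome interiors. In the first 5 Mb 64 of 1695 BABA TW3 regions were gained (3.78%, interval 2.97% to 4.79%), and in the last 5 Mb 46 of 993 (4.63%, interval 3.49% to 6.12%). Between them the share was 1.30% (1.17% to 1.44%). Lost regions made up 8.73% of control regions in the first and 9.03% in the last 5 Mb, and 2.69% between. Most gained and lost regions nevertheless lay between the ends, since 90.7% of the BABA TW3 regions did. With a score of 69 or more in both lists the lost share was 5.63% and 5.26% at the ends and 1.58% between, and the gained share 4.31%, 4.93% and 1.43%. None of these shares is matched for length or score, and short, low-scoring regions were gained and lost more often. Whether the higher shares at the ends go beyond the size of the regions there was not tested. Chromosome 9 had the opposite layout, with 6.34% gained in the first 5 Mb, 19.97% between and 4.95% in the last 5 Mb.

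Identical intervals were not rarer at the ends. Off chromosome 9 they made up 59.8% of BABA TW3 regions in the first 5 Mb, 68.4% in the last 5 Mb and 56.6% between.

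Moved limits mostly concerned 1 end of a region. Of the 6919 pairs, 5965 (86.2%) kept 1 limit to the base and moved the other, on the left in 2971 and on the right in 2994. The BABA TW3 region was the longer in 3882 pairs (56.1%) and the shorter in 3037. Moves were mostly short, with a median of 636 bases and quartiles of 155 and 2162. Outward moves were more numerous and longer. There were 4365 of them, with a median of 753 bases and 6662 kb in all, against 3508 inward moves with a median of 518 bases and 4534 kb. On chromosome 9 both limits had moved in 44.9% of pairs, against 9.23% elsewhere, and the median move was 1328 bases against 542. BABA TW3 was the longer in 53.6% of pairs on chromosome 9 and in 56.5% off it.

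The pairs with the most bases moved, by the rule for named regions, were on chromosomes 11 and 9. On chromosome 11 a control region at 26186112 to 26194360 (8.25 kb, score 110) corresponded to a BABA TW3 region at 26182228 to 26207632 (25.4 kb, score 261). On chromosome 9 a control region at 34258007 to 34262392 (4.39 kb, score 144) lay inside a BABA TW3 region at 34247665 to 34268994 (21.3 kb, score 269). The other 3 of the 5 were also on chromosome 9, with 14.0 to 15.2 kb moved. In each of the 5 pairs the BABA TW3 region was the longer.

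Splits and merges turned on short gaps. The gap between the pieces of a split region had a median of 155 bases, and so had the gap closed in a merge. Of 1379 gaps in splits 92.4% were under 1 kb, and of 2401 gaps in merges 92.8%. Most splits gave 2 pieces (92.7%), and most merges joined 2 regions (89.0%). The split regions were long, with a median of 27.5 kb and a score of 452, and so were the merged ones, with 26.4 kb and 449. Gaps opened in BABA TW3 added up to 513 kb and gaps closed to 933 kb.

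The most divided control region was at 45816699 to 45907394 on chromosome 7 (90.7 kb, score 1645). In BABA TW3 it fell into 6 regions, with gaps of 55 to 275 bases that came to 1 kb in all. Their scores added up to 1641. The other Moneyberg lists had 2 or 3 regions there, Bolstar BABA TW2 and Bolstar control had 1, and Bolstar Ina TW2 had 3. No merge joined more than 5 control regions. Among merges of 5, the one with the highest score became a BABA TW3 region at 8284452 to 8427533 on chromosome 12 (143 kb, score 2135), closing gaps of 70 to 172 bases. A further merge of 5, at 19801560 to 19891688 on chromosome 5 (90.1 kb, score 1682), closed gaps of 112 to 377 bases.

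The bases that differed between the lists came from different events on either side. Of the 15.1 Mb in only BABA TW3, 5.35 Mb (35.5%) were gained regions, 8.38 Mb (55.6%) lay beyond a limit of the overlapping control regions, and 1.35 Mb (8.95%) filled gaps between them. Of the 14.7 Mb in only the control list, 7.995 Mb (54.3%) were lost regions, 5.95 Mb (40.4%) lay beyond a limit and 0.791 Mb (5.37%) in gaps. BABA TW3 thus held more sequence by extension and joining, and control more by separate small regions. On chromosome 9 whole regions led on both sides, with 2.66 Mb gained (59.6%) and 3.05 Mb lost (64.3%).

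The 10 gained regions with the highest scores ranged from 402 down to 171, and 8 were on chromosome 9, each within the stretch from 6 to 61 Mb. The first 2 by score, at 31209773 and 16732105, were touched by all 6 other lists, and so was the third, at 13046471 to 13055095 (8.63 kb, score 243). Next by score, the region at 13132133 to 13150784 (18.7 kb, score 222), was touched by 5 of the 6, all but MeJA TW3. The fifth was at 40035335 to 40051778 (16.4 kb, score 197), and its nearest control region, 7.52 kb away, was itself a lost one. Of the 10, 9 were touched by all 3 other Moneyberg lists and 8 by all 3 Bolstar lists.

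Off chromosome 9 the top gained region was at 23846133 to 23863970 on chromosome 11 (17.8 kb, score 177), only 411 bases from a control region. Next came 22318212 to 22330904 on chromosome 10 (12.7 kb, score 171), 404 bases from a control region. A short region at 18869261 to 18873122 on chromosome 1 (3.86 kb, score 170) was dense, with 44.0 per kb against a median of 16.0 over the list. Below it came 6034005 to 6043631 on chromosome 1 (9.63 kb, score 157). These 4 were touched by all 6 other lists. The fifth, at 52228030 to 52239096 on chromosome 2 (11.1 kb, score 156), was the exception. It lay 46.7 kb from any control region and was touched by Moneyberg BABA TW2 and Bolstar Ina TW2 alone.

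The 10 top lost regions scored 232 to 156, and 8 of them lay on the same stretch of chromosome 9. Of the 10, 5 were touched by all 3 other Moneyberg lists and 7 by all 3 Bolstar lists. The first, on chromosome 12 from base 17408476, was 68 bases from a BABA TW3 region. The fifth, at 45929432 to 45936100 on chromosome 8 (6.67 kb, score 168), was 17 bases from one. On chromosome 9, the region at 23470463 to 23479294 (8.83 kb, score 177) lay 33.0 kb from any BABA TW3 region, and all 6 other lists touched it. A region at 57790016 to 57793641 (3.63 kb, score 160) was touched by Moneyberg BABA TW2, Bolstar BABA TW2 and Bolstar control.

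Some gained and lost regions lay end to end. The gained region at 53530646 to 53546670 on chromosome 9 (16.0 kb, score 178) ended 352 bases before the lost region at 53547023 to 53563199 (16.2 kb, score 186), and both are among the top 10. In all, 37 gained regions (4.43%) had a lost region within 1 kb, and 26 of these were on chromosome 9. In a further case there, 33773535 to 33780467 was gained and 33766022 to 33773528 lost, with 6 bases between. For most gained regions no lost one was near, with a median distance of 74.2 kb over all chromosomes, 34.8 kb on chromosome 9 and 195 kb elsewhere. Counting all control regions, lost or not, the nearest one was at a median of 3.71 kb, and within 1 kb for 29.2% of them. For lost regions the nearest BABA TW3 region was at 3.31 kb and within 1 kb for 27.1%.

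In bins of 1 Mb the listed share of the 2 lists was nearly the same almost everywhere. The median difference over 800 bins was -0.002 percentage points, and 60.3% of the bins differed by under 1 point. Bins at least 5 points higher in BABA TW3 numbered 3 (0.375%) and bins at least 5 points lower numbered 5 (0.625%). All 8 were on chromosome 9 between 12 and 51 Mb. Off chromosome 9 the differences ran from -3.53 to 4.24 points.

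The largest excess of BABA TW3 was found from 49 to 50 Mb on chromosome 9. Control listed 30.6% of this bin, BABA TW3 42.6%, and the other Moneyberg lists 39.3%, 43.7% and 40.0%. The 3 Bolstar lists had 43.3%, 43.3% and 46.1%, so Moneyberg control was the lowest of the 8. The largest deficit was found from 16 to 17 Mb, with 40.1% in control and 31.8% in BABA TW3. There the other Moneyberg lists had 39.8%, 34.9% and 41.2% and the Bolstar lists 41.7%, 41.2% and 42.4%, so BABA TW3 was the lowest of the 8. From 17 to 18 Mb it was the lowest again, with 37.9% in control, 31.1% in BABA TW3 and 35.3% to 42.6% in the other 6. From 15 to 16 Mb it was also the lowest, at 37.9% against 43.6% in control and 38.6% to 51.9% in the other 6. These 3 bins adjoin each other. From 50 to 51 Mb BABA TW3 was the lowest too, at 22.6% against 27.6% in control and 22.99% to 29.2% in the other 6. All of these bins were picked for the difference between BABA TW3 and control. In some other bins of the 10 the lower of these 2 lists was not the lowest of the 8. From 21 to 22 Mb, BABA TW3 listed 12.2% and control 17.7%, while Bolstar BABA TW2 was lower at 11.2%. From 34 to 35 Mb control had 25.7% and BABA TW3 31.7%, with Moneyberg Ina TW2 lower at 23.9%. From 12 to 13 Mb control had 40.6% and BABA TW3 45.6%, and Ina TW2 was lower at 37.7%.

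The other 6 lists were used to ask where gained and lost regions were listed elsewhere. The 3 other Moneyberg comparisons share the control list with this one, so only their own values are given. Of the gained regions 196 (23.4%) were touched by all 3 other Moneyberg lists and 189 (22.6%) by none. Of the lost regions 231 (15.7%) were touched by all 3 and 663 (44.9%) by none. The lowest score was 69 in Moneyberg BABA TW2, 68 in Ina TW2 and 71 in MeJA TW3, while 447 of the lost regions scored below 69. The shares touched by none are therefore not comparable between gained and lost regions. Each of these 3 lists touched 97.1% to 98.6% of the BABA TW3 regions that were not gained. At scores of 69 to 99, Moneyberg BABA TW2 touched 46.6% of gained regions and 94.3% of the others, Ina TW2 43.2% and 95.8%, and MeJA TW3 46.6% and 88.7%. Regions touched by none had the lowest scores, with medians of 79 for gained and 68 for lost, against 95.5 and 88 for those touched by all 3. Gained regions touched by none of the 6 other lists numbered 85 (10.2%), with a median score of 77. Lost regions of that kind numbered 417 (28.3%), with a median score of 68.

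The Bolstar lists share no library with either list. Bolstar control touched 487 of the 836 gained regions (58.3%, interval 54.9% to 61.6%) and 654 of the 1476 lost regions (44.3%, interval 41.8% to 46.9%). Of all other BABA TW3 regions it touched 91.9%, but those are larger. Among regions scoring 69 to 99, Bolstar control touched 54.1% of the gained and 70.8% of the BABA TW3 regions also found in control. It touched 46.7% of the lost and 72.3% of the control regions also found in BABA TW3. Bolstar BABA TW2, whose list starts at a score of 85, touched 44.7% of the gained and 42.5% of the lost regions in this class, and Bolstar Ina TW2 58.5% and 50.9%. The corresponding shares of regions found in both Moneyberg lists were 59.2% and 61.4% for Bolstar BABA TW2 and 82.4% and 83.1% for Bolstar Ina TW2. In each of the 3 Bolstar lists the interval of the gained and of the lost regions lay below that of the shared regions of this score class. The same held on chromosome 9 and off it, taken apart. The intervals came closest for Bolstar control on chromosome 9, with 54.0% of gained regions (48.1% to 59.9%) and 66.9% of shared BABA TW3 regions (63.3% to 70.3%). For lost regions the class does not match scores. It held 861 lost and 7288 shared control regions, and 322 of the 954 control regions scoring 69 to 71 were lost. Bolstar control starts at a score of 78 and Bolstar Ina TW2 at 71. Whether the lower shares of lost regions go beyond their lower scores was not tested.

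**Figure D5:**
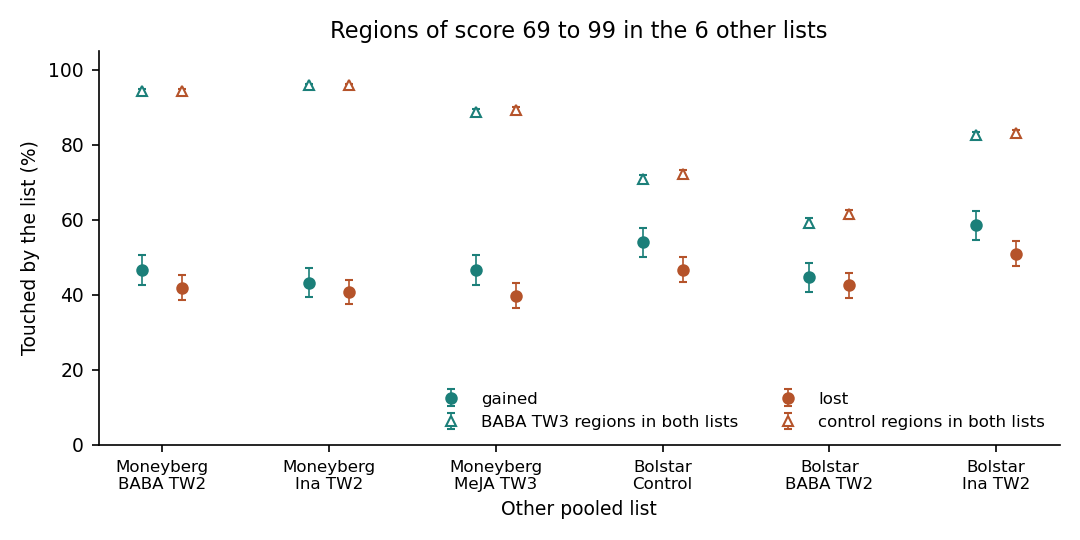
Percent of regions scoring 69 to 99 that share a base with each of the 6 other pooled lists, for gained and lost regions (filled circles) and for regions found in both lists (open triangles), with 95% Wilson intervals. In Bolstar control, 54.1% of gained and 46.7% of lost regions are touched, against 70.8% and 72.3% of the regions found in both lists.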

How the data were processed

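Whole-genome bisulfite libraries were prepared with an Ultralow Methyl-Seq system and read paired-end on a NovaSeq instrument, per the labels' protocols. Trim Galore is named in the submitters' processing notes, with no version. The sources used here name no aligner, region caller, genome build or cytosine context and do not say how libraries were pooled. The authors deposited 1 list per group with 6 columns and no header. Its score column was used as deposited, to rank and filter regions. Read depth behind a region is unknown. Lists were assigned to groups by the description given for each library.

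Overlaps were computed in Python 3.11.15 with numpy 2.4.6 and pandas 2.3.3, intervals with scipy 1.17.1. Regions sharing at least 1 base were linked, and linked groups were classed by the number of regions from each list. The code was tested on simulated lists with known events. Coordinates count from 1. Chromosome length was taken as the last listed base, place by the middle of a region, and bins were 1 Mb. Members, rules and bins were chosen with earlier results of these data known, and the limit of 75 and the stretch of chromosome 9 after seeing its values. Named are the 10 gained and 10 lost regions with the highest score, 5 of each off chromosome 9, the 5 most split, most merged and most moved, and the 5 bins with the largest rise and fall, of which examples are given. Alternatives were score limits of 69, 75, 100 and the median, chromosome 9 left out, 100 shared bases, 50% reciprocal overlap, joining within 1 kb and ends of 10 Mb. No genome of the lists' build was at hand, so no sequence is shown.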

Additional observations from a re-analysis of the deposited data

How the results depend on the processing

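No paired analysis was possible because each group is 1 pooled list; for the same reason no replicate could be left out. Depth is unknown, and the lists limit small regions most: their lower score limits differ, and no value carries replicate error. Of 70 values under 11 alternatives, 42 stayed near the main value (counts within 1.5 times). The 28 counted as moved include every alternative of the Jaccard index, even 0.937 against 0.936. The Jaccard index of 0.936 was 0.939 at a score of 69 or more in both lists, 0.954 without chromosome 9, 0.957 with both, 0.938 at 75 or more, 0.955 at 75 or more without chromosome 9, 0.926 at 100 or more, 0.881 at or above the median score, and 0.937 with regions less than 1 kb apart joined. Gained regions numbered 452 without chromosome 9, 498 when also at 69 or more and 553 when at 75 or more, the limit added after seeing the data. Lost regions numbered 582 and 358 in the latter settings, 747 at 75 or more and 608 at 100 or more. At 75 or more and at 100 or more, gained regions outnumbered lost ones, the reverse of the main order. At or above each list's own median score, 162 in BABA TW3 and 154 in control, 647 were gained and 1068 lost. These limits are unequal. A control region scoring from 154 to below 162 could be called lost even where BABA TW3 listed the same interval at the same score. The order at this setting is therefore no check on the main order. Asking for 50% of both regions gave 3262 gained, 5003 lost and 10807 shifted regions, with 0 split and 0 merged, since at that limit only pairs are linked. At or above the median score 580 regions were split, 1913 merged, 4532 shifted and 7747 identical, from lists cut to 15594 and 16431 regions. Joining regions less than 1 kb apart left 588 split and 1820 merged, most gaps being shorter. With ends of 10 Mb, 75.5% of gained and 66.5% of lost regions lay between the ends, in place of 85.2% and 80.9%.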
